A study of Mus musculus with 11 samples.

Results

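Non-muscle myosin II is the motor that gives non-sarcomeric actin bundles their contractile force, and its transcripts were followed here across the quadriceps libraries of aged mice. The genes taken were Myh9, Myh10 and Myh14, which encode the heavy chains, Myl6, which encodes the essential light chain, and Myl12a and Myl12b, which encode regulatory light chains. These 6 genes, of 53465 in the count table, were matched by symbol to their Ensembl identifiers, so that Myh14 here is the gene on chromosome 7 and not Myh7b, for which the name Myh14 is a recorded synonym. The family was chosen by the p-value of Myh14, which was among the lowest when the treated and control groups were compared. Its rank was 7 of 14117 genes tested, next to Igfbp6 at rank 6 (log2 fold change -0.42) and Dmp1 at rank 8 (0.82). The difference of Myh14 between the groups is therefore what chose the family, and it is given as a description without a test.

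RNA was sequenced from the quadriceps, a large thigh muscle, of mice of the strain that the labels write as C57L/6JRj. One group received myriocin, an inhibitor of serine palmitoyltransferase and so of sphingolipid synthesis, and the other DMSO, the control treatment. Treatment started at 18 months of age and lasted 10 weeks, and the comparison asks how muscle transcripts of old animals differ after it. There were 5 DMSO and 6 myriocin libraries, and the labels do not say that each came from a separate mouse, so p-values measure the spread between these libraries, which may be partly technical.

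A working non-muscle myosin II molecule is a pair of heavy chains, each carrying an essential and a regulatory light chain. Phosphorylation of the regulatory light chain, by kinases such as myosin light chain kinase, unfolds the molecule and lets it assemble into short bipolar filaments, and myosin phosphatase reverses this. Heavy chain IIA (Myh9) and IIB (Myh10) are widespread in non-muscle cells, while IIC (Myh14) has a narrower distribution, and mutations of human MYH14 cause hearing loss and, in some families, neuropathy with myopathy. Smooth muscle myosin uses the Myl6 light chain as well, and its own heavy chain is Myh11. The light chains of sarcomeric myosin are encoded by other genes.

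Gene totals per deposited library ranged over 22241131 to 23163721 reads, and a floor of 3 counts is 0.130 to 0.135 CPM (the count scaled to an equal gene total in each library). The member with the fewest reads, Myl12b, had 258 to 514 per library and the member with the most, Myl12a, had 3604 to 7399. Of the 6 members, 6 passed the filter on low counts. The 8 markers of skeletal fibres summed to between 101353 and 136570 CPM in every library, which fits the labelled tissue. In bulk muscle, fewer cells of a type and less RNA per cell cannot be told apart, and these members are transcribed in many cell types of the tissue. DMSO replicate 2 stood apart by neutrophil markers (776 CPM for the sum of 10 genes, 3.28 to 109 CPM in the other 10 libraries) and adipocyte markers (1726 CPM for 7 genes, 279 to 668 CPM elsewhere). DMSO replicates 4 and 5 and Myriocin replicate 4 carried liver transcripts (106 to 134 CPM for the sum of 8 genes, 6.62 to 30.4 CPM elsewhere).

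The heavy chain genes lie on different chromosomes of GRCm38, and reads from them are well told apart. Myh14 (ENSMUSG00000030739) spans chr7:44605803-44670843 on the minus strand, Myh9 (ENSMUSG00000022443) chr15:77760587-77842175 on the minus strand, and Myh10 (ENSMUSG00000020900) chr11:68691559-68816632 on the plus strand. Of all windows of 50 bases in the longest coding transcript of Myh14, 0% occurred in a transcript of another gene, against 1.12% for Myh9 and 0.943% for Myh10, which share stretches with each other and with Myh11. A stretch of 60 exonic bases of Myh14 is also covered by an antisense transcript on the plus strand, 2310016G11Rik, which had 4 to 15 reads per library.

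The light chains are less clean. Myl12a (ENSMUSG00000024048, chr17:70993656-71002878) and Myl12b (ENSMUSG00000034868, chr17:70973133-70990890) are neighbours on the minus strand and near-identical copies in their coding part. Sequences within the same locus aside, 11.5% of the windows of Myl12a and 11.4% of those of Myl12b recurred in transcripts of other genes, mostly in each other. In GENCODE M21, Myl12a shares 19.9% of its exonic bases with overlapping genes, among them the sarcomeric gene Myom1 on the opposite strand, and Myl12b shares 26.7%. Part of the first share and all of the second lie in a further Myl12b gene model across both loci, which has no row in the count table, so these shares may not apply to the authors' counts. Myl6 (ENSMUSG00000090841, chr10:128490860-128494145, minus strand) had 18.5% of its windows in other genes, led by processed pseudogenes. Reads with several alignments or on overlapping genes were set aside in the authors' counting, so the levels of the 3 light chain genes are uncertain.

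The stretch before the start of Myh14 is printed because it is dense in a common promoter element, the CCAAT box, and that before the start of Myh9 stands beside it for comparison. Both are 250 bases from RefSeq on GRCm38.p6, written 5′ to 3′ on the gene's strand, with each CCAAT or its reverse complement ATTGG in capitals. The Myh14 stretch is chr7:44670844-44671093 and the Myh9 stretch chr15:77842176-77842425, both on the minus strand.
Myh14: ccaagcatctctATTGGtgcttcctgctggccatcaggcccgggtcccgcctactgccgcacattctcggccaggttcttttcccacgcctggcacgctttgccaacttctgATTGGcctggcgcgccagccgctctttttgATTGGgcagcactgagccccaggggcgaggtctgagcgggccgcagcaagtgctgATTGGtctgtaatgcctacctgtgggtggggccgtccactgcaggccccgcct
Myh9: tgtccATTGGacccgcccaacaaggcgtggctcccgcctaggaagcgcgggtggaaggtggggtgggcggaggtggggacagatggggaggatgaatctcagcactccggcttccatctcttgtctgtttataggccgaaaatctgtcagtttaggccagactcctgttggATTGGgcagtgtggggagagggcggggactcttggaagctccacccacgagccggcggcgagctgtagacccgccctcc

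The letters CCAAT, searched on both strands, occurred 4 times before Myh14, all in the reverse orientation, 3 times before Myh10 and 2 times before Myh9. Over 32851 such stretches of all genes, 33.8% held the motif at least once, 10.1% at least 2 times, 2.79% at least 3 times and 0.840% at least 4 times. The starts of Myl12a and Myl12b held 0, and the pair of starts listed for Myl6 held 1 and 0. The second start of Myl6 was the one with a CArG box, the element bound by serum response factor, which 1.47% of all stretches hold, and no match of the motifs overlapped. The CCAAT motif was searched after the sequences had been seen, and a match is a string of letters and not a shown binding site.

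Per kilobase of exon, the scale on which genes can be compared, Myl12a had the highest level of the members, at 60.3 ± 12.9 CPM per kilobase (SD, n = 11), followed by Myl6 at 30.7 ± 4.84. Myh14 came next and was the most abundant heavy chain, at 12.2 ± 1.69 CPM per kilobase. Myh9 stood at 6.33 ± 0.870, Myl12b at 5.74 ± 1.09 and Myh10 at 2.17 ± 0.565 CPM per kilobase. For 4 of the 5 neighbouring pairs in this order the higher gene lay above the lower in 11 of 11 libraries with no overlap of their ranges. Myh9 lay above Myl12b in 9 of 11 libraries only, and their ranges overlapped. With the longest transcript as the length in place of the union of exons, Myh14 and Myh9 came closer, at 13.6 and 11.02 CPM per kilobase, Myh14 being higher in 10 of 11 libraries, so the gap between them rests on the exon models.

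**Figure D1:**
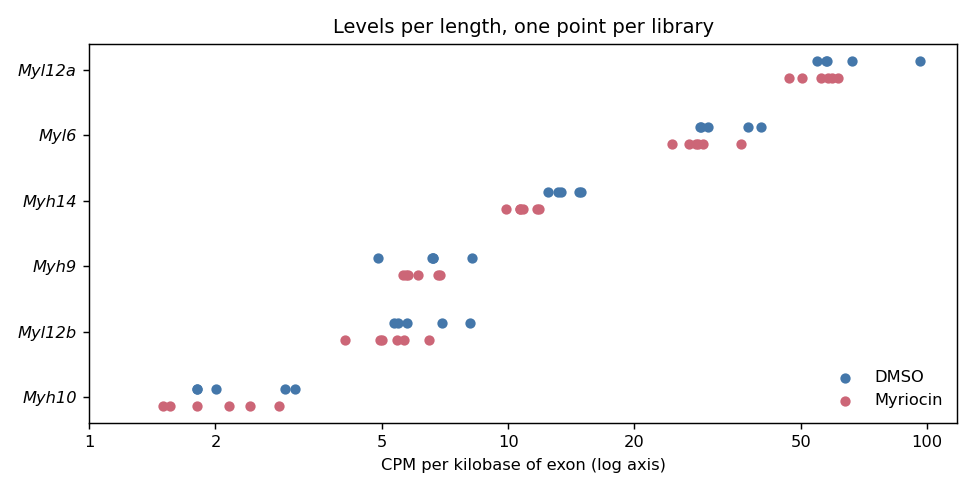
Levels of the 6 members in CPM per kilobase of exon on a log axis, one point per library, DMSO in blue and myriocin in red. Myl12a, Myl6 and Myh14 form separate bands, Myh9 and Myl12b overlap, and Myh10 is lowest in each of the 11 libraries.

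All of these levels were small beside the sarcomere. Myh4, the fast fibre myosin heavy chain, stood at 11108 ± 927 CPM per kilobase (SD, n = 11). Among other genes of the actin cytoskeleton on the same scale, the non-muscle actins Actb and Actg1 stood at 102 ± 13.3 and 29.6 ± 3.74 CPM per kilobase, the smooth muscle heavy chain Myh11 at 6.94 ± 1.46 and its regulatory light chain Myl9 at 26.1 ± 4.80.

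Among the heavy chains, Myh14 made up 60.8% ± 3.48 (SD, n = 5) of the summed level per kilobase with DMSO and 57.3% ± 3.43 (SD, n = 6) with myriocin, with ranges of 56.7% to 66.3% and 51.5% to 60.1% that overlap. Myh9 made up 28.9% ± 3.30 and 32.1% ± 1.85, and Myh10 10.3% ± 2.56 and 10.6% ± 2.14. These shares carry the difference of Myh14 and were not tested. With the longest transcript as the length the share of Myh14 was 51.5% ± 3.67 with DMSO and 47.8% ± 3.32 with myriocin. Of the sum of Myl12a and Myl12b, Myl12a made up 91.2% ± 1.21 with DMSO and 91.3% ± 1.17 with myriocin. With the longest transcript as the length it made up 93.3% and 93.4%. These SDs give the spread of the libraries and not the uncertainty in counting the light chain genes. Myl9, at 26.1 ± 4.80 CPM per kilobase, is outside the sum of Myl12a and Myl12b.

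Myh14 was lower with myriocin. With DMSO it had 109, 107, 90.4, 97.1 and 95.5 CPM in replicates 1 to 5, and with myriocin 77.5, 85.1, 78.9, 77.7, 71.6 and 85.9 CPM in replicates 1 to 6. Each of the 6 myriocin libraries lay below each DMSO library, the nearest pair being Myriocin replicate 6 and DMSO replicate 3. The means were 99.8 ± 7.87 CPM (SD, n = 5) and 79.5 ± 5.31 CPM (SD, n = 6). The fitted log2 fold change (the myriocin level minus the DMSO level) came to -0.29, standard error 0.07, or -18.3%. Over all genes tested, 0.602% had groups whose CPM did not overlap, and Myh14 was taken for this contrast, so nothing is read from its being the 1 of 6 members among them. The value lay between -0.33 and -0.26 when any single library was left out.

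**Figure D2:**
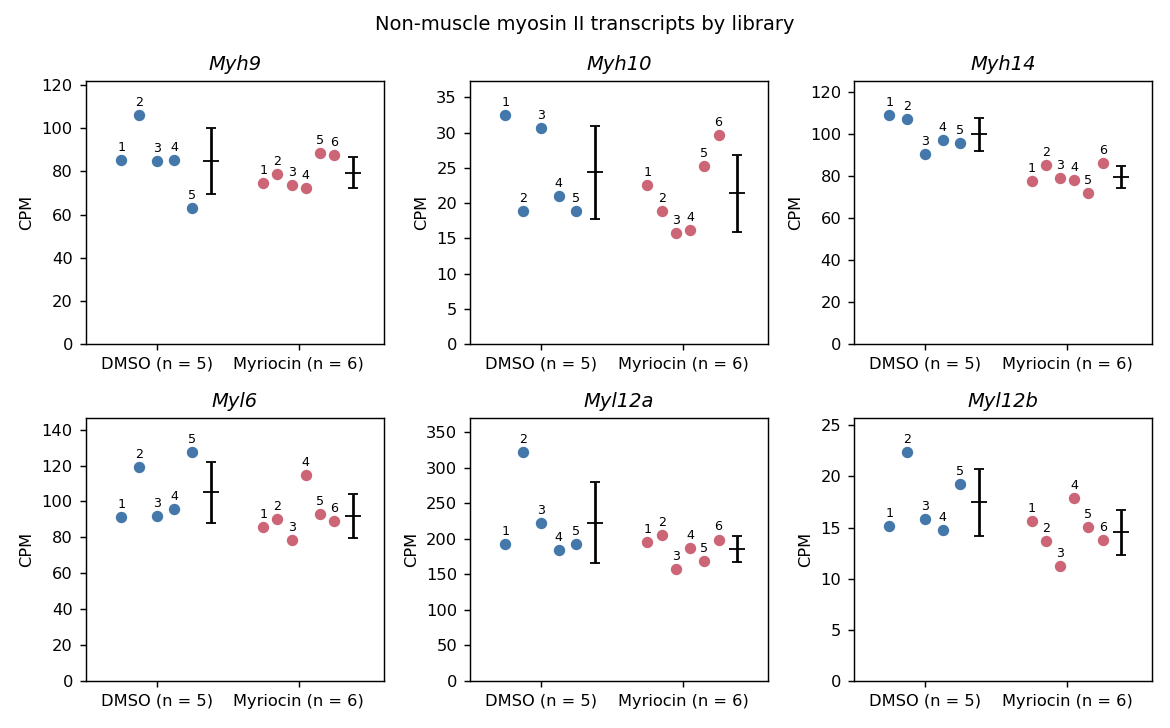
CPM of each of the 6 members in every library, with the replicate number above each point and the mean ± SD of the group as a black bar to its right, all axes starting at 0. The Myh14 points of the groups do not overlap, Myh14 having been taken for this contrast. Those of the other 5 members overlap, as do those of all but 0.602% of the genes tested. DMSO replicate 2 is the highest point for Myh9, Myl12a and Myl12b.

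The other heavy chains did not part the groups. Myh9, the IIA chain, had 85.3, 106, 85.0, 85.4 and 63.1 CPM with DMSO and 74.5, 78.8, 73.8, 72.6, 88.6 and 87.8 CPM with myriocin. The DMSO libraries held both its highest value, in replicate 2, and its lowest, in replicate 5, so the myriocin range lay inside the DMSO range. Its log2 fold change was -0.06 (standard error 0.09; edgeR's adjusted p = 0.958), with a 95% interval from -0.26 to 0.14, or from -16.5% to 10.5%. Leaving out DMSO replicate 2 gave 0.014, leaving out DMSO replicate 5 gave -0.14 and leaving out Myriocin replicate 3 gave -0.03, and it was -0.13 without the 3 libraries carrying liver transcripts and -0.10 with no scaling beyond the library total.

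Myh10, the IIB chain, had 32.4, 18.9, 30.6, 20.996 and 18.9 CPM with DMSO and 22.5, 18.8, 15.7, 16.3, 25.3 and 29.7 CPM with myriocin. The 2 highest libraries were DMSO replicates 1 and 3 and 3 of the 6 myriocin libraries lay below each DMSO library, while Myriocin replicates 1, 5 and 6 lay above the other 3 DMSO libraries. Its within-group spread was the widest of the members, a coefficient of variation of 26.4%, and its standard deviation of log2 CPM, 0.37, was above that of 95.9% of 2252 genes of like level (within 0.5 log2 units). The log2 fold change was -0.15 (standard error 0.20; edgeR's adjusted p = 0.948), with a 95% interval from -0.58 to 0.28. Leaving out one library moved it to -0.03 (DMSO replicate 1), -0.06 (DMSO replicate 3), -0.08 (Myriocin replicate 3), -0.10 (Myriocin replicate 4), -0.25 (DMSO replicate 2) or -0.27 (Myriocin replicate 6), and it was -0.24 with the 3 liver-marked libraries left out.

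The light chains had negative values that did not pass the test. Myl12a, the higher regulatory light chain of the members, had 193, 322, 222, 184 and 193 CPM with DMSO and 195, 206, 158, 187, 169 and 199 CPM with myriocin. DMSO replicate 2 was far above the rest, and the other 4 DMSO libraries overlapped with the myriocin libraries. The means were 223 ± 57.4 CPM (SD, n = 5) and 186 ± 18.6 CPM (SD, n = 6), with a log2 fold change of -0.22 (standard error 0.12; edgeR's adjusted p = 0.936) and a 95% interval from -0.48 to 0.04. Without DMSO replicate 2, the library with the neutrophil and adipocyte transcripts, it was -0.07, and without the 3 libraries with liver transcripts it was -0.35. The part of those transcripts in the difference was not tested.

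Myl12b, the lower regulatory light chain of the members, had 15.1, 22.4, 15.9, 14.8 and 19.3 CPM with DMSO and 15.6, 13.7, 11.3, 17.9, 15.1 and 13.8 CPM with myriocin. Of the 6 myriocin libraries 3 lay below each DMSO library, and Myriocin replicate 4 lay above 3 of the 5 DMSO libraries. The log2 fold change was -0.22 (standard error 0.13; edgeR's adjusted p = 0.936), with a 95% interval from -0.50 to 0.05, and it was -0.14 without DMSO replicate 2.

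Myl6, the essential light chain shared with smooth muscle myosin, had 91.6, 119, 92.0, 95.5 and 128 CPM with DMSO and 85.8, 90.2, 78.3, 115, 93.1 and 89.3 CPM with myriocin. DMSO replicates 2 and 5 and Myriocin replicate 4 were high, and 4 of the 6 myriocin libraries lay below each DMSO library. The log2 fold change was -0.16 (standard error 0.12; edgeR's adjusted p = 0.936), with a 95% interval from -0.41 to 0.09. Leaving out DMSO replicate 5 gave -0.06 and leaving out Myriocin replicate 4 gave -0.24. Both of these carry liver transcripts, and without all 3 such libraries the value was -0.15.

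**Figure D3:**
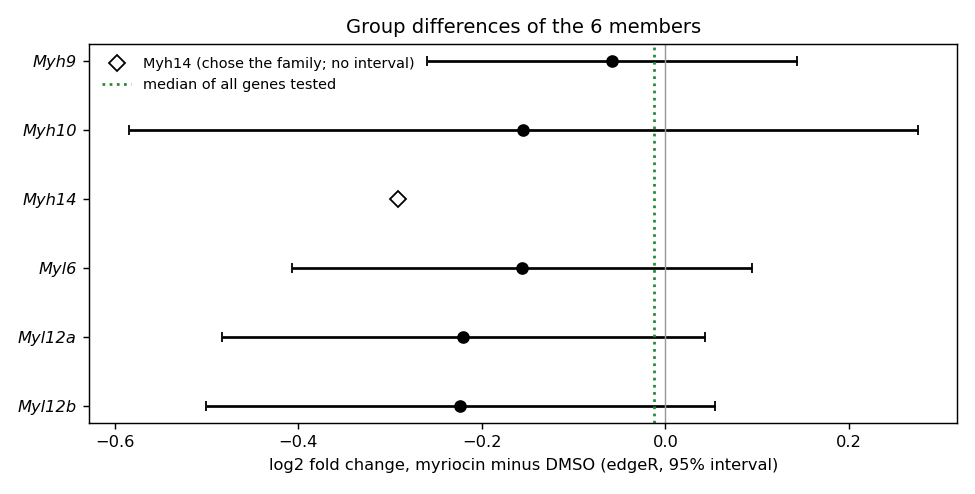
Log2 fold change of each member, myriocin minus DMSO, from edgeR, with 95% intervals as bars for the 5 genes other than Myh14 (open diamond, no interval, since it chose the family) and the median of all tested genes, -0.01, as a dotted line. The 6 points lie below 0, from -0.29 for Myh14 to -0.06 for Myh9, and the 5 intervals include 0.

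Of the 5 members other than Myh14, 0 passed edgeR's adjusted threshold of 0.05, as did 0% of all 14117 genes tested, and 0 had an unadjusted p under 0.05, which 4.68% of all genes had (660 genes). DESeq2 called 3 genes of the whole table and limma-voom 0, none of them among these 5 members. The sign was negative for 5 of 5, with a median of -0.16, where 53.7% of all genes had a negative value and the median was -0.01. The members share libraries and, for the light chains, sequence, so their signs are not independent of each other.

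Ratios within a library, which do not depend on the scaling, did not differ between the groups beyond the spread of the libraries. Myh10 stood at 0.221 to 0.470 of the level of Myh9 per kilobase with DMSO and at 0.263 to 0.418 with myriocin, a difference in log2 ratio of -0.10 (2-sided exact permutation test over all assignments of the libraries, p = 0.634, adjusted over 3 ratios 0.881). Myl12b stood at 0.0843 to 0.121 of Myl12a with DMSO and at 0.0806 to 0.116 with myriocin, a difference of -0.02 (exact permutation p = 0.881, adjusted 0.881). The 3 light chains together stood at 9.46 to 15.6 times the sum of Myh9 and Myh10 with DMSO and at 9.16 to 13.7 times with myriocin, a difference of -0.11 (exact permutation p = 0.502, adjusted 0.881). The smallest p that this design allows is 0.00216.

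Within the groups the members did not vary as a single block. After the mean of each group was taken off the log2 CPM values, the 15 pairs of members had Pearson's r from -0.44 to 0.87 over 11 libraries, with a median of 0.01 and 8 pairs above 0. These are descriptions of libraries that share their composition, and no p is given. The highest value was that of Myl6 with Myl12b (r = 0.87, Spearman's coefficient = 0.90), and it was 0.87 without the 2 libraries farthest out for Myl6, DMSO replicate 5 and Myriocin replicate 4. Both of these light chains were high in those libraries and low in Myriocin replicate 3. Myl12a followed Myl12b less closely (r = 0.61, Spearman's coefficient = 0.65), and r was 0.29 without DMSO replicate 2 and Myriocin replicate 3, so that relation rests on those libraries. The heavy chains Myh9 and Myh10 had r = 0.30 (Spearman's coefficient = 0.38), which became 0.70 without DMSO replicates 2 and 5.

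**Figure D4:**
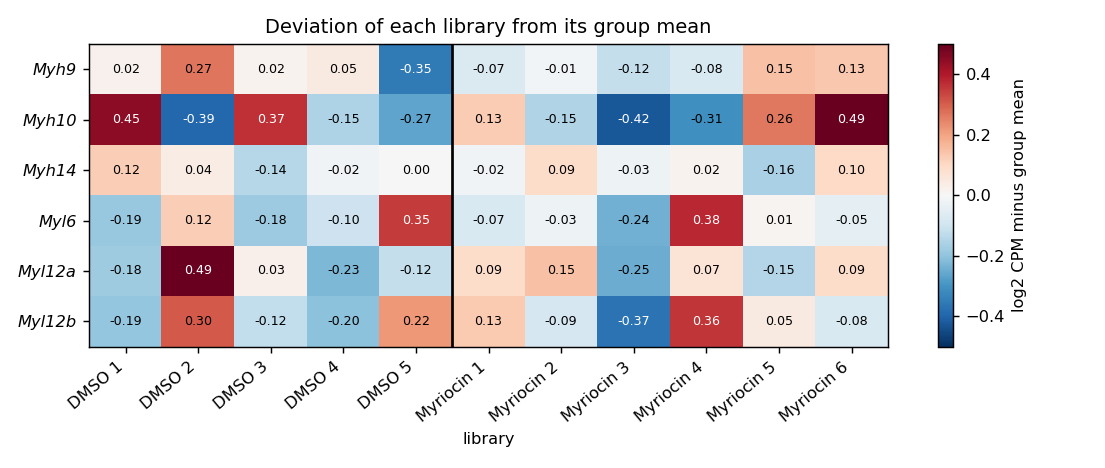
Log2 CPM of each member minus the mean of its group, by library, with the value printed in each cell and a black line between the groups. Myl6 and Myl12b share high values in DMSO replicate 5 and Myriocin replicate 4 and a low value in Myriocin replicate 3.

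The spread of Myh14 within the groups entered the p-value that chose the family, and a low p favours a low spread, so it is given as a description only. Its within-group coefficient of variation was 7.41%, beside 14.0% for Myh9, 14.8% for Myl6, 17.2% for Myl12b and 20.1% for Myl12a. The standard deviations of log2 CPM of Myh9, Myl6, Myl12a and Myl12b were above those of 74.9%, 85.7%, 84.5% and 85.3% of the genes of like level. The r of Myh14 with the other 5 members lay between -0.04 and 0.25 over 11 libraries. With Myh10 it was -0.04 (Spearman's coefficient = 0.19), and -0.75 without DMSO replicate 1 and Myriocin replicate 6, so the value for this pair rests on those libraries.

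Likeness in within-group pattern was taken as the 4 highest r among 8975 genes with at least 5 CPM. For Myh14 these included Snx33, a sorting nexin (r = 0.81, Spearman's coefficient = 0.69 over 11 libraries), and Smug1, a uracil DNA glycosylase (0.79, 0.63). For Myh9 they were Zfp36l2, an RNA-binding protein that promotes mRNA decay (r = 0.94, Spearman's coefficient = 0.91), the kinase Jak3 (0.92, 0.75), the vitamin transporter Slc5a6 (0.91, 0.65) and Ralgapa2 (0.88, 0.65). Without the 2 libraries farthest out, r was 0.51 for Snx33 and 0.58 for Smug1, and between 0.56 and 0.78 for the 4 genes like Myh9. As the highest of 8975 values, these are large by selection.

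Markers of other cell types moved with some of the members over the 11 libraries, DMSO replicate 2 included. Within the groups, the adipocyte markers had a median r of 0.77 with Myl12a (6 of 6 above 0), 0.51 with Myh9 (6 of 6) and -0.01 with Myh14. The neutrophil markers had 0.40, 0.60 and -0.19, from the 4 of 10 genes with a mean of at least 5 CPM. Over all genes compared, the median r was -0.04, -0.01 and -0.003 in the same order. DMSO replicate 2, highest for both marker lists, was also highest for Myl12a, Myl12b and Myh9. No r without that library is given, so the adipocyte and neutrophil values may rest on it. Of the cell type lists, tendon markers had the highest median r with Myh14, 0.39 (5 of 5 above 0, of 6 listed). Erythroid markers had the lowest, -0.53 (0 of 4 above 0, of 7 listed). Macrophage markers had 0.17 (9 of 9 above 0), and the other lists lay between -0.21 and 0.15. DMSO replicate 1 was highest for Myh14 and for the tendon sum. Myriocin replicate 5, lowest for Myh14, had an erythroid sum of 213 CPM (46.1 to 236 CPM over the 11 libraries). No r without these libraries is given, so the tendon and erythroid values may rest on them. Between the groups, the summed level of the 15 endothelial markers was 553 to 594 CPM with DMSO and 437 to 564 CPM with myriocin. It was lowest in Myriocin replicate 3, the library in which Myh10, Myl6, Myl12a and Myl12b were also lowest. The fibroblast, Schwann cell, adipocyte, erythroid and tendon marker sums were lowest there too, so this is not particular to endothelial markers. Those of skeletal fibres, smooth muscle, macrophages, neutrophils, satellite cells and liver were lowest in other libraries. The tendon markers summed to 219 to 507 CPM with DMSO and 127 to 366 CPM with myriocin, and the skeletal fibre markers to 101353 to 129558 and 117039 to 136570 CPM. The part of these cell types in the levels of the members was not tested.

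The regulators of the motor showed no common direction. Of 22 tested kinases, phosphatase subunits and related proteins that act on the regulatory light chain, 12 lay above 0 in log2 fold change and 10 below. The median was 0.01, beside -0.01 for all genes, of which 53.7% were negative. The adjusted threshold was passed by 0 of them, as by 0% of all 14117 genes tested. The smallest p belonged to Pak1, a p21-activated kinase (0.27, standard error 0.10; 47.2 ± 3.94 CPM with DMSO, 55.6 ± 9.49 CPM with myriocin), Ppp1r12c, a targeting subunit of myosin phosphatase (-0.13, standard error 0.08), and Dapk3, a kinase of the regulatory light chain (-0.12, standard error 0.08), each with an edgeR adjusted p of 0.936. The myosin light chain kinase gene Mylk had a mean of 30.9 ± 3.37 CPM (SD, n = 5) in the DMSO libraries and of 27.2 ± 3.83 CPM (SD, n = 6) in the others.

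Of 23 tested non-muscle actins and filament partners, 10 were positive and 13 negative, near the 53.7% negative among all genes tested. Their median was -0.04, and 0 were past the adjusted threshold, as were 0% of all genes. Those with the smallest p were the tropomyosin Tpm1 (0.13, standard error 0.09), the actin binding protein Svil (0.14, standard error 0.10) and the leukocyte protein Lsp1 (0.17, standard error 0.14). Fast fibres also use Tpm1, and its mean of 14384.5 CPM with DMSO and 15406.2 CPM with myriocin was far above that of Actb. The actins themselves had like levels: Actb stood at 276 ± 41.6 and 271 ± 33.7 CPM, and Actg1 at 78.2 ± 13.4 and 79.1 ± 7.39 CPM.

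The smooth muscle set, which shares Myl6, had 4 of 6 tested genes negative, beside 53.7% of all genes tested. Its median was -0.15, and 0 were past the threshold, as were 0% of all genes. Myl9 (-0.22, standard error 0.14), the actin Acta2 (-0.20, standard error 0.14) and Myh11 (-0.15, standard error 0.16) led the set. Of the 15 sarcomeric myosin genes, 8 were positive and 7 negative, with a median near 0 and again 0 past the threshold. The smallest p belonged to Myh7b, a slow-type heavy chain of low level (-0.52, standard error 0.21; 4.40 ± 1.08 and 2.98 ± 0.831 CPM), Myh4 (0.20, standard error 0.08) and the light chain Myl1 (0.24, standard error 0.11), each with an edgeR adjusted p of 0.936. In these 4 lists 0 genes had groups whose CPM did not overlap, beside 0.602% of all genes tested.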

How the data were processed

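The authors deposited raw read counts per Ensembl gene for 11 libraries. The submitters' processing notes name STAR 2.5.2b, HTSeq 0.6.0 and GRCm38. Strand setting and annotation release are not stated there, so antisense partners may not be told apart. The 5 summary lines (24.8% to 28.2% of reads) were left out, and 0 columns were unassigned. Symbols, coordinates and lengths came from GENCODE M21.

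The test was that of edgeR 4.0.16 (R 4.3.3): filterByExpr (minimum count 10, total 15), TMM scaling, robust quasi-likelihood F test with treatment as the single factor, Benjamini-Hochberg over 14117 genes. Standard errors were calculated back from F. CPM levels are counts over gene totals, without TMM; log2 CPM for deviations used TMM and a prior count of 2. DESeq2 1.42.0 and limma 3.58.1 (voom) were alternatives. The fit was also run on counts simulated from its own fitted dispersions with independent libraries, so libraries that stand apart were not covered. Intervals cover counting error and spread as fitted, the floor is a fixed 3 counts in each library, and reads may include PCR copies.

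The members, gene lists and alternatives were chosen with earlier results of these data known. Named genes were the members, the 3 with the smallest p in each role list, reference genes (Actb, Actg1, Myh11, Myl9, Myh4 and Mylk among them) and the 4 most like Myh14 and Myh9. A few of these, and 1 role list, are not reported here. Myl12a was added to the marker comparison after its values were seen.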

Additional observations from a re-analysis of the deposited data

Results flagged for a closer look

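Of 18 groups of libraries examined for a library far from the others (6 members and 3 ratios in 2 treatment groups), 1 had one, where chance gives about 5% of groups. Myl12a stood at 322 CPM in DMSO replicate 2 and at 184 to 222 CPM in the other 4 DMSO libraries, the gap being 0.721 of the whole range. The same library held the highest sums of neutrophil and adipocyte markers; their part in the value was not tested.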

How the results depend on the processing

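The log2 fold change of Myh14 stayed negative in 20 of 20 alternatives, from -0.33 to -0.26 with single libraries left out and from -0.33 to -0.29 otherwise. Its difference chose the family and its groups do not overlap in CPM, so a stable sign was to be foreseen. Nothing is read from it. Of the 5 other members 0 passed in any alternative run, and their signs held except that of Myh9, which ran from -0.14 to 0.014 with single libraries left out and was 0.014 without DMSO replicate 2. The number of genes past the threshold was 0 with each library left out in turn and 3 with DESeq2. The Myl12b to Myl12a difference had no stable sign: it ran from -0.080 to 0.062 with single libraries left out, and was 0.012 under the replicate block and 0.039 when the 3 libraries carrying liver transcripts were dropped, an alternative added after seeing the data. The Myh10 to Myh9 difference ran from -0.27 to 0.0044 with single libraries left out, the highest without DMSO replicate 1. The light to heavy chain difference ran from -0.19 to -0.011 with single libraries left out and was 0.014 with Myh14 added to the heavy chains. That last value carries the difference of Myh14, which chose the family. The cause of the other turns was not tested. The groups share replicate numbers in the labels, but same-numbered libraries did not deviate together (r from -0.13 to 0.09 over genes, 5 pairs). The labels do not state a pairing, and r near 0 cannot exclude one of small effect. Under the replicate block, over 10 libraries, 0 genes passed and Myh10 had -0.25. The spread limits what could be seen: the 95% interval of Myh10 runs from -33.3% to 21.04%.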
